A study of Mus musculus with 8 samples.

Results

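The metallothioneins *Mt1*, *Mt2* and *Mt3* and the metal transporters *Slc30a1*, *Slc30a3*, *Slc30a10*, *Slc39a10* and *Slc39a14* were examined in the hippocampus of mice exposed to benzo[a]pyrene (BaP), a polycyclic aromatic hydrocarbon. These 8 genes were chosen by name, from 20660 genes named on the array, and every probe of each was considered. All animals were adult male Muta Mouse, 9 weeks of age. This strain carries a bacterial lacZ reporter transgene, which the control mice carry as well. BaP-exposed mice (n = 4) received 70 mg/kg bw per day in olive oil by oral gavage for 3 days, and control mice (n = 4) received the oil vehicle. The hippocampus was taken 24 hr after the last dose, and the array samples come from groups of 5 dosed mice.

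Metallothioneins are small cysteine-rich proteins that bind zinc and copper and buffer both metals inside the cell. *Mt1* and *Mt2* are made in most tissues, in brain above all in astrocytes, and their transcription responds to zinc, cadmium, glucocorticoids and oxidants. The zinc-sensing factor MTF1 acts on them through metal response elements (MREs) close to the start of transcription. *Mt3* is the metallothionein typical of the central nervous system. SLC30 proteins move zinc out of the cytosol, across the cell membrane or into vesicles, and SLC39 proteins move it into the cytosol. The hippocampus is known for the zinc that its mossy fibers hold in synaptic vesicles.

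The bases before the annotated start of 4 of these genes are shown because MRE sequences near the start are how MTF1 acts on metallothioneins, and *Slc30a1* is the transporter known to share their regulator. Each is the 250 bases before the start in RefSeq, build GRCm38.p6, plus strand, 5′ to 3′. The windows are chr8:94178839-94179088 for *Mt1*, chr8:94172368-94172617 for *Mt2*, chr8:94152357-94152606 for *Mt3* and chr1:191906531-191906780 for *Slc30a1*. Capitals mark MRE cores, TGCACNC or TGCGCNC on either strand.
Mt1: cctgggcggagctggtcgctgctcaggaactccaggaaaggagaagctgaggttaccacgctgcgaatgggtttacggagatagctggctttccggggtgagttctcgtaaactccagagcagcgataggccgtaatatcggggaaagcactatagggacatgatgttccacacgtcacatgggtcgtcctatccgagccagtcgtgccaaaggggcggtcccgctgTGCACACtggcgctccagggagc
Mt2: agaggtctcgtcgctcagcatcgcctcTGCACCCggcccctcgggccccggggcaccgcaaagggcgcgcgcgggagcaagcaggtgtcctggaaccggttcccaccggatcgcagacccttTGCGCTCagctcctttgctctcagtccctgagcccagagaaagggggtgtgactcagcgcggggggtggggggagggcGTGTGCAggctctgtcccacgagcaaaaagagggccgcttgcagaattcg
Mt3: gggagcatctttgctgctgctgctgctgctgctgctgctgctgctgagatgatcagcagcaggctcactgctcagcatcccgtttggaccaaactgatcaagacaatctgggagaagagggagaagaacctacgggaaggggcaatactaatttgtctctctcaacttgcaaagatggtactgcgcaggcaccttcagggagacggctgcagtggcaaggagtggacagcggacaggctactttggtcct
Slc30a1: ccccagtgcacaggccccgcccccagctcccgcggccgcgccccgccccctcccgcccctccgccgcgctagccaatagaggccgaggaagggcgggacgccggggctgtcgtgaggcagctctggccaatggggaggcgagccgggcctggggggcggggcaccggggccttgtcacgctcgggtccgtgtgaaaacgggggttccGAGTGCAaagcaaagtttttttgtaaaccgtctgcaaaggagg

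The window of *Mt2* held 3 MRE cores, that of *Mt1* held 1, that of *Slc30a1* held 1 and that of *Mt3* held 0. Of 32851 promoter windows of this length in the RefSeq table, 21.4% held at least 1 MRE core and 1.26% held 3 or more. Among the genes not printed, *Slc30a10* also held 3, of which a pair on opposite strands overlapped, *Slc30a3* held 1 at 1 of its 2 starts and *Slc39a10* held 0 at both. The first 50 bases after the start, which are not printed, held 2 more cores for *Mt1* and 1 more for each of *Mt2*, *Mt3* and *Slc30a1*. With them *Mt1* had 3 and *Mt2* had 4, so the gap between these genes depends on where the start is set, and which start the hippocampus uses was not measured. The annotated *Mt1* start may lie upstream of the one commonly used, so both *Mt1* counts may miss cores and do not rank the genes. The xenobiotic response element core GCGTG, to which the AHR binds after activation by BaP, was found once in each of the *Mt1*, *Mt2* and *Slc30a1* windows, at 1 start of *Slc30a3* and in 28.2% of all windows. In *Mt2* that match overlapped the MRE core nearest to the start. An antioxidant response element core, TGACNNNGC, was present in *Mt2* and *Slc30a1* (10.2% of windows). The glucocorticoid response element, GNACA followed by TGTNC after a gap of 3 bases, was present in *Mt1* alone among these promoters (0.387% of windows). All motifs were searched on both strands, 7 of the 8 genes had a promoter entry (not *Slc39a14*), and no binding was measured. Motifs farther from the annotated start are not counted.

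**Figure D1:**
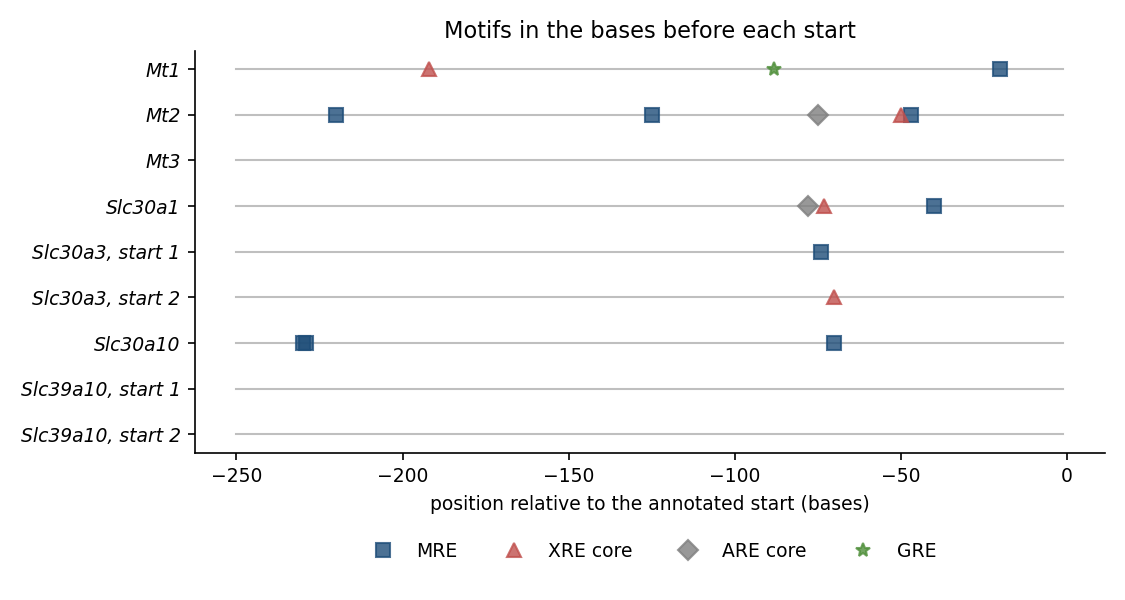
Positions of motifs in the 250 bases before each annotated start of 7 genes, 1 line a start, with the position relative to the start in bases on the x axis. Squares are MRE cores, triangles are xenobiotic response element cores (XRE core), diamonds are antioxidant response element cores (ARE core) and the star is a glucocorticoid response element (GRE). The *Mt2* line holds 3 squares and the *Mt1* line 1.

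RNA of each mouse was labeled with Cy5 and hybridized with a universal mouse reference RNA in Cy3 on 1 slide of Agilent arrays, without a dye swap. Levels are given as log2 ratios of Cy5 over Cy3 after loess within each array, and a log2 ratio of 0 means as much signal as in the reference. Per array the Cy5 median over spots was 108 to 174, above a background of 67 to 71, and 56.6% to 67.4% of the 59305 spots exceeded background clearly. Outlier marks fell on 1483 spots of control mouse 1 and on 310 to 371 spots of each other mouse. The 4 mice in the second row of the slide carry titles and source names that disagree on the group. Groups follow the titles here, and values by source name are given where they matter. The beta-globin gene *Hbb-bs* had the smallest p of all tested probes in limma with the groups by title. It read 5.46 and 5.05 in the control and 3.54 and 2.95 in the BaP-exposed mice of row 1, whose labels agree. In row 2 it read 5.13 and 5.08 in the mice titled control and 3.23 and 3.40 in those titled BaP, the same direction as in row 1. Since its rank rests on the titles of all 8 mice, these values are no independent check of the titles. Neuron, astrocyte and oligodendrocyte markers averaged log2 ratios between 4.26 and 5.54 in every mouse, and 6 markers of hippocampal neurons between 2.93 and 3.60.

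Each of the 8 genes had exactly 1 probe, which was well above background in Cy5 on all 8 arrays with no saturated or outlier spot. The moderated test in limma, with Benjamini-Hochberg adjustment over 32598 tested probes, placed 0 of the 8 genes at an adjusted p of 0.05 with a fold change of 1.5. Of all tested probes, 3 (0.0092%) passed, and all 3 were lower in BaP-exposed mice. At an unadjusted p of 0.05, 1 of the 8 genes passed, *Mt2*, against 8.76% of all probes. *Mt2* was also the 1 gene of the 8 whose groups did not overlap, against 5.06% of all probes. Requiring in addition a level higher by 1.5-fold left *Mt2* among the 8 and 99 probes of all (0.304%). Of the 8 point estimates, 5 were above 0 and 3 were below. Their median was 0.15 on the log2 scale. The median over 15088 tested genes was -0.00017.

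*Mt2* had log2 ratios of 0.61, 0.23, 0.46 and 0.04 in control mice 1 to 4 and of 1.09, 1.002, 1.18 and 0.70 in BaP-exposed mice 1 to 4. Every BaP-exposed mouse was above every control mouse. The lowest BaP-exposed mouse, mouse 4, was just above the highest control mouse, mouse 1. The means were 0.33 ± 0.25 and 0.99 ± 0.21 (SD, n = 4 each), and the log2 fold change was 0.66, or 1.58-fold (standard error, SE, 0.14, 95% interval 0.34 to 0.97). Among all tested probes *Mt2* was at rank 78 by p, with an unadjusted p of 0.000891 and an adjusted p of 0.372 from limma, so it did not pass the threshold. The exact permutation test, 2-sided over all 70 assignments, gave p = 0.0286, the smallest that 4 mice against 4 allow. In bulk tissue, fewer or more cells of a type and less or more RNA per cell cannot be told apart, here and below.

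The difference in *Mt2* had about the same size in both rows of the slide, 0.63 in row 1 and 0.69 in row 2. By the source names, which exchange the groups of the row 2 mice, it was -0.03. In the Cy5 channel the *Mt2* spot read 39896 to 70341.5 in control mice and 64263 to 115810 in BaP-exposed mice before normalization, so the groups overlapped there. In Cy3, which holds the same reference RNA on every array, it read 110109 to 165996. The spot was among the brightest on the array, at the 99.4th percentile. Within the control group the order of *Mt2* from high to low, mice 1, 3, 2 and 4, was also that of the arrays' median Cy5 signal. Among BaP-exposed mice, mice 3 and 1 were the highest in both. Between groups, the arrays' median Cy5 signal overlapped (108 to 174 in control mice, 111 to 143 in BaP-exposed mice), and its part in the *Mt2* values was not tested.

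**Figure D2:**
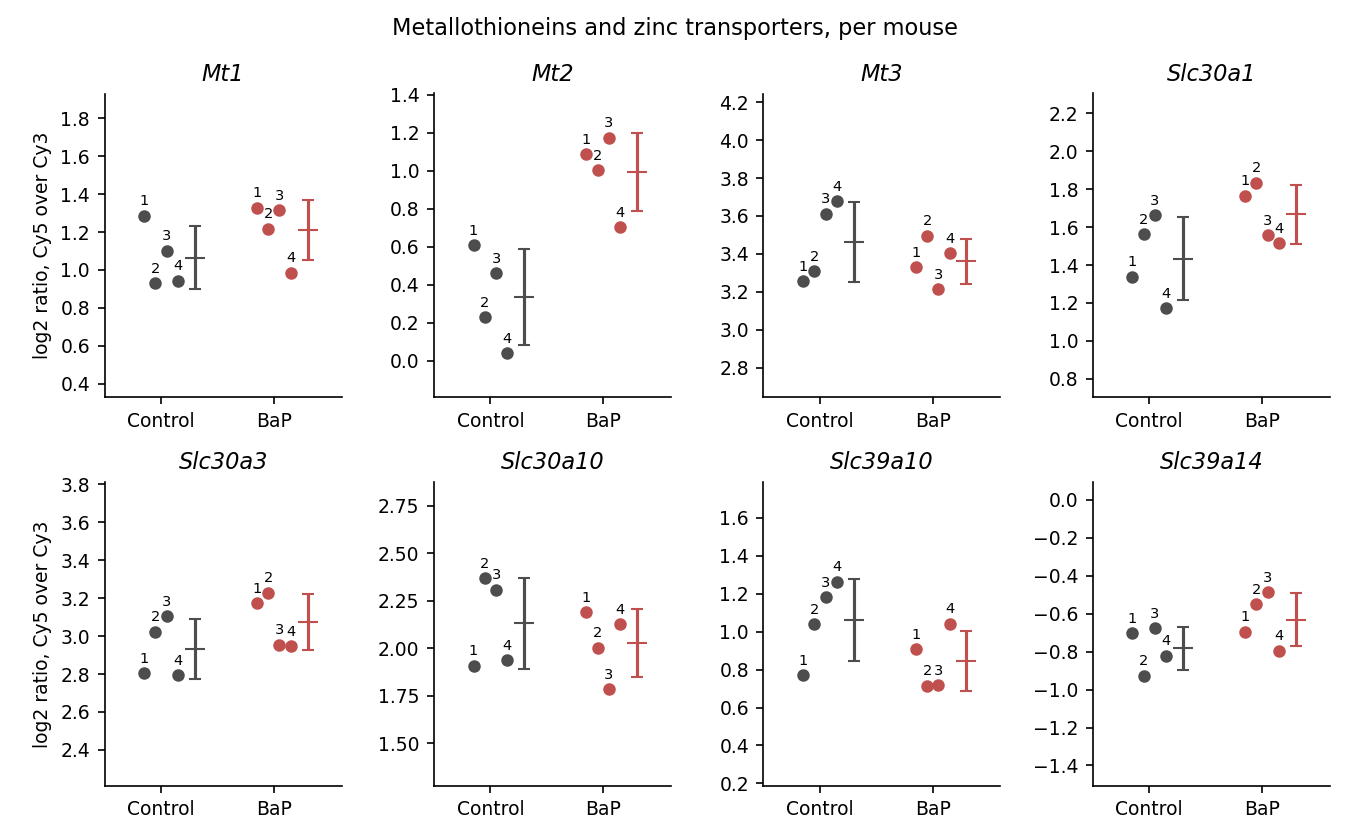
Log2 ratio of Cy5 over Cy3 in each mouse for the 3 metallothioneins and 5 transporters, with control mice in gray and BaP-exposed mice in red and the mouse number above each point. Bars give the mean and SD (n = 4), and every panel spans the same height on the log2 scale. The groups separate in *Mt2* alone, at 0.04 to 0.61 against 0.70 to 1.18.

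*Mt1*, whose protein has the same metal-binding role as that of *Mt2*, had log2 ratios of 1.29, 0.93, 1.10 and 0.94 in control mice and of 1.33, 1.22, 1.32 and 0.99 in BaP-exposed mice. The groups overlapped, with control mouse 1 among the BaP-exposed mice and BaP-exposed mouse 4 among the controls. The log2 fold change was 0.15 (SE 0.11, 95% interval -0.10 to 0.39, adjusted p = 0.705 from limma). Centring each array on its median in place of loess gave 0.39 for *Mt1* and 0.87 for *Mt2*, with an upward shift of 0.17 in the median of all probes.

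The difference between *Mt2* and *Mt1* was then taken within each mouse. It was -0.68, -0.70, -0.64 and -0.91 in control mice and -0.24, -0.22, -0.14 and -0.28 in BaP-exposed mice. The groups were apart, with a wider gap between them than within either. The mean was -0.73 ± 0.12 in control mice and -0.22 ± 0.06 in BaP-exposed mice (SD, n = 4 each), a change of 0.51. This pair was chosen after its values were seen, so the change is a description with no test. The change was 0.45 to 0.56 over the 16 other settings that use the titles, the groups were apart in all 16, and it was -0.05 by the source names. With a mouse left out or within 1 slide row, groups already apart cannot overlap, so those settings could not test the separation. How far *Mt1* and *Mt2* transcripts cross-hybridize was not tested.

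**Figure D3:**
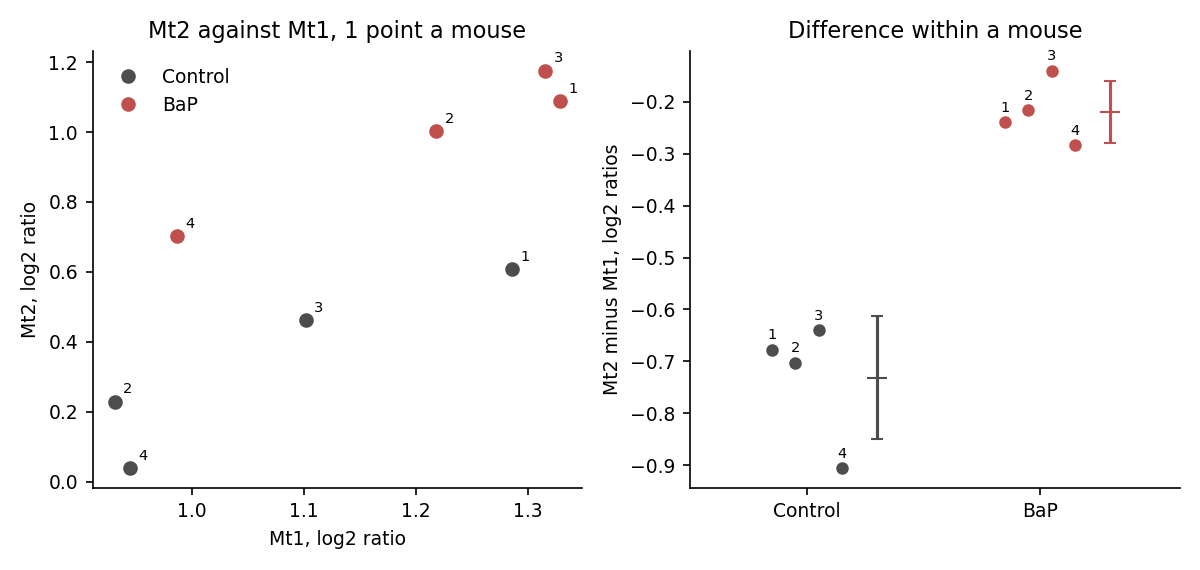
Left, log2 ratio of *Mt2* (y axis) against that of *Mt1* (x axis), 1 numbered point a mouse. Right, the difference of the 2 log2 ratios within each mouse, with mean and SD (n = 4 each). At a like level of *Mt1*, the BaP-exposed mice in red lie above the control mice in gray, and the differences span -0.91 to -0.64 and -0.28 to -0.14.

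*Mt3* had log2 ratios of 3.26, 3.31, 3.61 and 3.68 in control mice and of 3.33, 3.50, 3.21 and 3.40 in BaP-exposed mice. In control mice this was 11.0-fold the signal in the reference RNA, while *Mt1* was at 2.09-fold and *Mt2* at 1.26-fold. These ratios to the reference are open to dye bias. The *Mt3* groups overlapped, and the log2 fold change was -0.10 (SE 0.12, 95% interval -0.36 to 0.15, adjusted p = 0.812 from limma). Its sign is not settled, since it was 0.15 with median centring, 0.09 in the Cy5 channel alone and 0.13 within row 1 of the slide. Within row 2 it was -0.34. The difference *Mt2* minus *Mt3* within a mouse changed by 0.76, from -3.64 to -2.65 in control mice to -2.70 to -2.04 in BaP-exposed mice, with an overlap at the edge, and it too was chosen after its values were seen.

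*Slc30a1* encodes ZnT1, the zinc exporter of the cell membrane and, like *Mt1* and *Mt2*, a known target of MTF1. Its log2 ratios were 1.34, 1.56, 1.66 and 1.17 in control mice and 1.76, 1.83, 1.56 and 1.52 in BaP-exposed mice. BaP-exposed mice 1 and 2 were above all control mice, and mice 3 and 4 were below control mouse 3. The log2 fold change was 0.23 (SE 0.12, 95% interval -0.04 to 0.51, unadjusted p = 0.0879, adjusted p = 0.609 from limma). It was 0.35 within row 1, 0.12 within row 2 and, with the groups no longer overlapping, 0.43 with median centring.

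*Slc30a3* encodes ZnT3, which loads zinc into synaptic vesicles and is typical of mossy fibers. Control mice had log2 ratios of 2.80, 3.02, 3.10 and 2.79, a mean of 7.63-fold over the reference, and BaP-exposed mice had 3.17, 3.23, 2.95 and 2.95. BaP-exposed mice 1 and 2 were the highest of all 8 mice, and mice 3 and 4 lay within the control range. The log2 fold change was 0.14 (SE 0.11, 95% interval -0.09 to 0.38, adjusted p = 0.698 from limma). It came from row 1 of the slide, at 0.29, while row 2 gave 0.00010.

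*Slc30a10* is a member of the same family that exports manganese. Its log2 ratios were 1.91, 2.37, 2.31 and 1.94 in control mice and 2.19, 2.003, 1.78 and 2.13 in BaP-exposed mice, and the groups overlapped. The log2 fold change was -0.10 (SE 0.13, 95% interval -0.40 to 0.19, adjusted p = 0.839 from limma), and it was 0.02 with the authors' log ratios. The reference channel of this probe was well above background on 0 of 8 arrays, so that its ratio to the reference has no firm value.

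*Slc39a10* encodes ZIP10, a zinc importer of the cell membrane. It had log2 ratios of 0.77, 1.04, 1.18 and 1.26 in control mice and of 0.91, 0.71, 0.72 and 1.04 in BaP-exposed mice. BaP-exposed mice 2 and 3 were below all control mice, and the other BaP-exposed mice lay within the control range. The log2 fold change was -0.22 (SE 0.12, 95% interval -0.49 to 0.06, unadjusted p = 0.107, adjusted p = 0.630 from limma). It was -0.09 within row 1 and -0.34 within row 2, and its sign turned, to 0.04, with median centring.

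*Slc39a14* encodes ZIP14, an importer of zinc, iron and manganese. It had log2 ratios of -0.70, -0.93, -0.68 and -0.82 in control mice and of -0.70, -0.55, -0.49 and -0.80 in BaP-exposed mice. Control hippocampus thus gave 0.581 times the signal of the reference. BaP-exposed mice 2 and 3 were above all control mice and the other mice were mixed. The log2 fold change was 0.15 (SE 0.10, 95% interval -0.06 to 0.37, adjusted p = 0.660 from limma), and it was 0.38 with median centring.

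**Figure D4:**
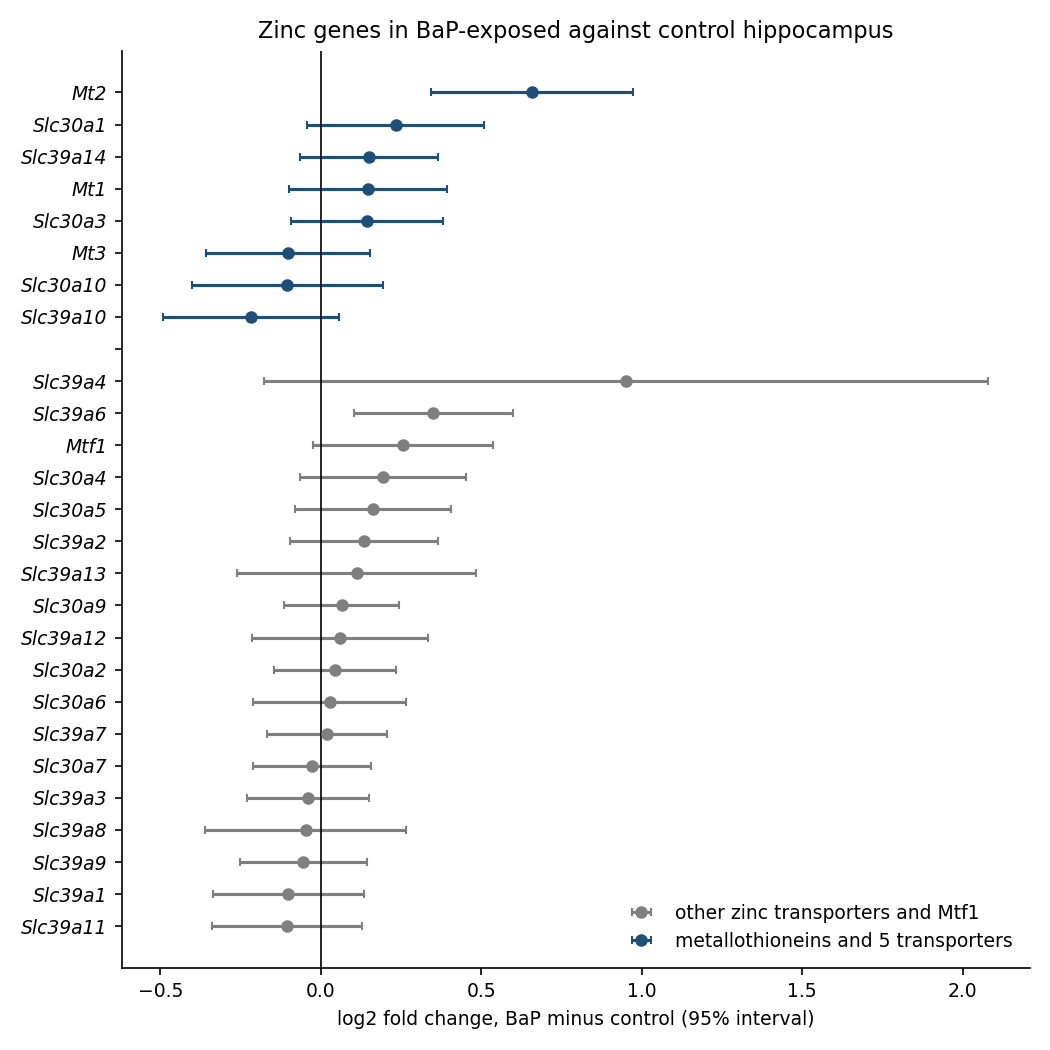
Log2 fold change of BaP-exposed over control mice (x axis) with its 95% interval from limma, for the 3 metallothioneins and 5 transporters in blue and 18 other tested zinc genes in gray, 1 row a gene. Among the blue genes the interval of *Mt2*, 0.34 to 0.97, lies above 0 and the others include 0. Among the gray genes that of *Slc39a6*, 0.10 to 0.60, lies above 0.

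The other genes of zinc handling were taken as a list of 21, the remaining SLC30 and SLC39 transporters, *Mt4* and *Mtf1*. Of the 18 tested, 12 had a point estimate above 0 and 6 below, 0 passed the adjusted threshold and 1 passed an unadjusted p of 0.05, against 9.44% of all 15088 tested genes. For 1 gene, the same one, the groups did not overlap, against 5.29% of all genes. Neither share stands out from the background. The median log2 fold change was 0.05. The gene was *Slc39a6*, whose product ZIP6 is a close relative and partner of ZIP10. It had log2 ratios of 0.22, 0.16, 0.26 and -0.03 in control mice and of 0.40, 0.77, 0.50 and 0.35 in BaP-exposed mice, without overlap. Its log2 fold change was 0.35 (SE 0.11, unadjusted p = 0.0099, adjusted p = 0.498 from limma). *Mt4*, which is typical of stratified epithelium and lies beside *Mt3* on chromosome 8, was well above background on 2 of 8 arrays and was not tested, nor were *Slc30a8* and *Slc39a5*.

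Some of the others are given although the naming rule did not select them. *Mtf1* was missing in control mouse 1, where its spot was an outlier, and read 0.71 to 0.92 in the other control mice and 0.91 to 1.31 in BaP-exposed mice. Its log2 fold change was 0.26 (95% interval -0.02 to 0.54, adjusted p = 0.588 from limma). *Slc39a12*, a zinc importer of astrocytes, read 4.22 to 4.70 in control mice and 4.29 to 4.67 in BaP-exposed mice. *Slc39a4*, an importer known from intestine, had the largest point estimate of the list, 0.95, with an interval of -0.18 to 2.08. It read -0.52, -1.43, -0.48 and -1.87 in control mice and -1.65, 0.31, 0.96 and -0.12 in BaP-exposed mice. Its order over the 8 mice was nearly that of the mean of 11 choroid plexus markers, which read 3.54, 2.41, 3.87 and 2.04 in control mice and 1.56, 4.54, 5.01 and 3.98 in BaP-exposed mice. The part of choroid plexus RNA in the *Slc39a4* values was not tested.

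Copper and iron handling was covered by a list of 18 genes, since metallothioneins also bind copper. Of 17 tested, 10 had a point estimate above 0 and 7 below, 0 passed the adjusted threshold and the median log2 fold change was 0.09. *Ireb2*, an iron-sensing regulator of mRNA, was the 1 gene of the 17 that passed an unadjusted p of 0.05 (9.44% of all genes). It read -0.53 to -0.22 in control mice and -0.36 to 0.29 in BaP-exposed mice, with overlap, and its log2 fold change was 0.32 (SE 0.14, adjusted p = 0.556 from limma). *Slc31a1*, a copper importer named here after its values were seen, had the largest point estimate, 0.86 with an interval of -0.11 to 1.83, and was missing in control mouse 3. Its log2 ratios, -0.65, -1.27 and -1.28 in control mice 1, 2 and 4 and -1.44, 0.17, 0.72 and -0.27 in BaP-exposed mice, ran in the same order as the choroid plexus mean over these 7 mice, and the part of choroid plexus RNA was not tested.

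Glucocorticoids are textbook inducers of *Mt1* and *Mt2*, and a list of 14 glucocorticoid-induced genes was set beside them. Earlier results on this list in these mice were known when it was written, so its counts are a description. All 14 were tested, 13 had a point estimate above 0 and 1 below, and their median log2 fold change was 0.35. At the adjusted threshold 0 passed. An unadjusted p of 0.05 was passed by 8 of the 14, against 9.44% of all tested genes, and 6 of the 14 did not overlap between groups, against 5.29% of all. The 5 with the smallest p were *Nfkbia*, an inhibitor of NF-kappaB, at 0.78, the kinase gene *Sgk1* at 1.27, the lipid droplet gene *Plin4* at 0.87, the transcription factor gene *Klf9* at 0.40 and *Per1*, a clock gene, at 0.37. Their adjusted p in limma ran from 0.147 to 0.490.

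The mean log2 ratio of the 14 genes was 0.39, 0.22, 0.50 and 0.38 in control mice and 0.71, 0.78, 0.89 and 0.65 in BaP-exposed mice, without overlap. The difference was 0.39. By the source names the list's median log2 fold change was 0.08 in place of 0.35, and 1 gene did not overlap in place of 6. Over all probes 2.73% did not overlap by the source names. In *Mt2* and in this mean alike, BaP-exposed mouse 3 was the highest and mouse 4 the lowest of its group, while mice 1 and 2 changed places. In control mice the orders differed, with *Mt2* from high to low in mice 1, 3, 2 and 4 and the list in mice 3, 1, 4 and 2. *Mt1*, with a log2 fold change of 0.15, did not separate. The part of glucocorticoid signaling in the *Mt2* values was not tested.

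Markers of the cell types that the dissection could hold were averaged per mouse in 9 lists, of which every gene was tested. Of 8 astrocyte markers, 7 had a point estimate below 0, and their mean read 4.74 to 5.01 in control mice and 4.63 to 4.87 in BaP-exposed mice, a difference of -0.10 (exact permutation p = 0.286). The 11 choroid plexus markers were all above 0 by point estimate, with a mean difference of 0.81 and overlapping groups (exact permutation p = 0.371). The part of astrocyte or choroid plexus RNA in the *Mt2* values was not tested.

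All 5 red cell genes were lower in BaP-exposed mice without overlap (5.29% of all genes did not overlap), with a mean of 4.62 to 4.84 against 3.54 to 3.90, a difference of -1.06. The 5 are a description too, since their pattern was known. *Hbb-bs*, at -1.90 (adjusted p = 0.00234), and the heme synthesis gene *Alas2*, at -1.05 (adjusted p = 0.0444 from limma), were 2 of the 3 probes called on the whole array. *Hba-a1* was at -0.94, *Hba-a2* at -0.80 and *Hbb-bt* at -0.59. The part of blood RNA in the *Mt2* values was not tested. For hippocampal neurons the difference was 0.26 (exact permutation p = 0.0857, or 0.343 after Benjamini-Hochberg adjustment over 12 lists). For neurons, oligodendrocytes, microglia, endothelium and meningeal fibroblasts it lay between -0.09 and 0.12 (exact permutation p from 0.229 to 0.886, unadjusted). Within the endothelium list single genes differed in sign. *Cldn5*, a tight junction gene, read 5.25 to 5.39 in control mice and 4.69 to 4.87 in BaP-exposed mice, with a log2 difference of -0.57 (limma, adjusted p = 0.138), while the transporter gene *Slco1a4* was at 0.36 and the receptor gene *Tek* at 0.26 (adjusted p = 0.523 and 0.553). Of 5 microglia markers, 3 had a point estimate above 0 and 2 below, with a mean difference of 0.02, and *Cx3cr1*, a chemokine receptor gene, was at -0.22 (adjusted p = 0.553 from limma).

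The genes most like *Mt2* over the 8 mice were found by Pearson's r among 14865 genes with a value on every array. They were *Dip2c* (r = 0.983), *Actr3*, which encodes a subunit of the actin-nucleating complex (0.973), the myelin gene *Pllp* (0.971), the chemokine scavenger gene *Ackr2* (0.968) and *Rwdd4a* (0.963). Of these, *Ackr2* had the largest log2 fold change, 0.53 (adjusted p = 0.368 from limma), with log2 ratios of 1.57 to 1.84 in control mice and 1.94 to 2.34 in BaP-exposed mice. *Mt1* was at rank 290 with an r of 0.828. *Slc39a14* followed at 0.798, *Slc30a1* at 0.655 and *Slc30a3* at 0.508, while *Slc30a10* was at -0.344, *Mt3* at -0.538 and *Slc39a10* at -0.799. These correlations are descriptions over 8 mice, and they share the difference between the groups as well as the arrays.

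**Figure D5:**
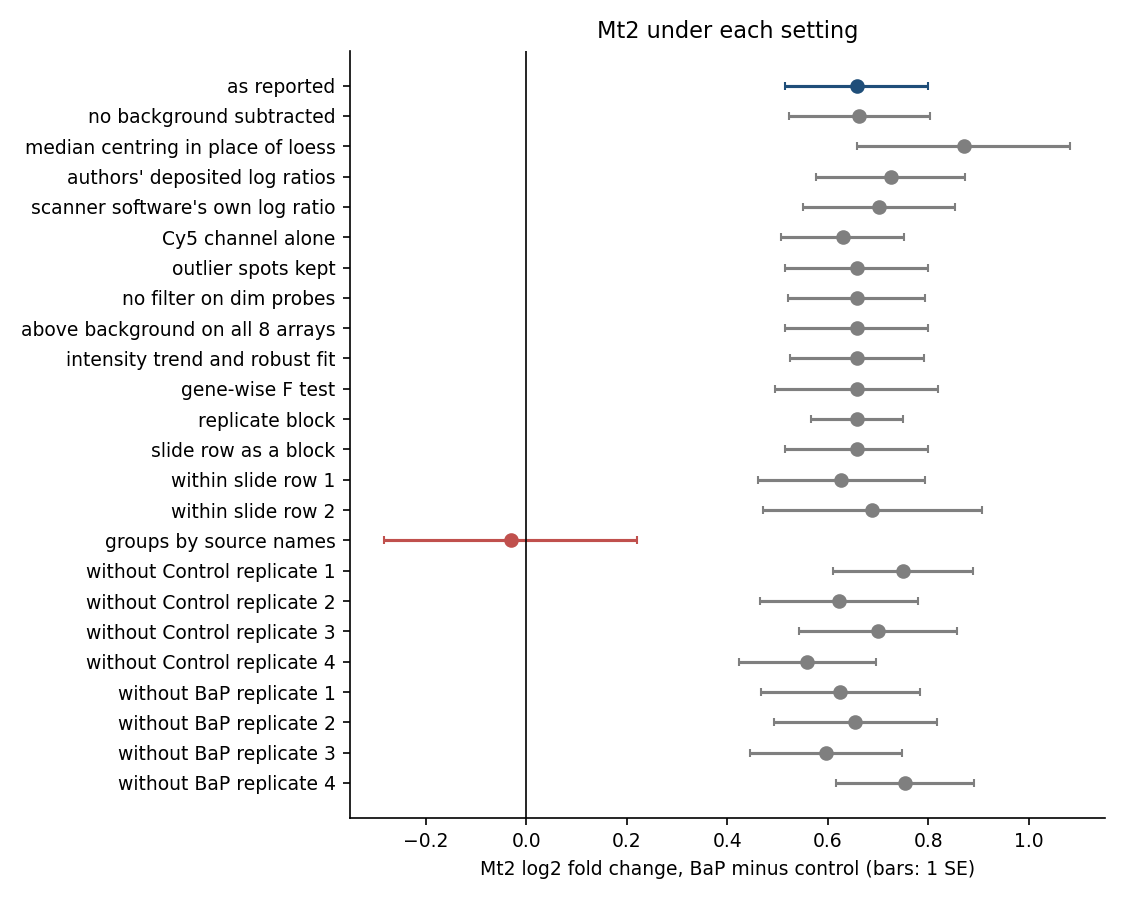
Log2 fold change of *Mt2* in BaP-exposed over control mice (x axis) with bars of 1 standard error, 1 row a setting of the processing. With the groups of the titles it was 0.56 to 0.87 in 22 other settings, and with those of the source names, in red, it was -0.03.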

How the data were processed

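Hippocampal RNA of 8 mice was hybridized to 2-color Agilent arrays, 1 array a mouse. As deposited, the scanner files give each spot's intensity in Cy5 and Cy3 with its background, its outlier marks and a log10 ratio of the 2 channels. A table of log2 ratios was deposited as well, made by the authors with LOWESS per their methods. Set against the scanner's values, the direction of this table is Cy5 over Cy3 (r = 0.953 to 0.985 with the unsubtracted log2 ratio, slope 0.89 to 0.96), and its column medians are -0.046 to -0.034. How its columns were centred is not known. All 8 arrays were mapped to groups by their titles.

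Spot medians were used, since the files hold no spot means. In limma 3.58.1 under R 4.3.3 the background was corrected with normexp (offset 50), control spots were left out, outlier spots were set to missing, loess was applied to the ratios of each array, and replicate spots were averaged. Of 55681 probes, the 32598 that the scanner marked as clearly above background in Cy5 on 4 or more arrays were tested with lmFit and eBayes, with Benjamini-Hochberg adjustment over all of them. The study's own test was an analysis of variance for microarrays, at an FDR of 0.05 and 1.5-fold. Permutation tests were exact, 2-sided and took every assignment of mice to groups. The fits were tested on simulated data. The small number of arrays limits the precision.

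Probes were named through their RefSeq accessions with a table of GRCm38.p6, used for names (27235 of 28685 matched), and the brightest tested probe stood for a gene. Promoter sequences came from RefSeq tables of the same build and were searched in Python 3.11.15. The members and lists were chosen with earlier results of these data known. Named genes are all members, from the gene and marker lists those with an unadjusted p of 0.05 or less or without overlap, up to 5 a list by p, and the 5 genes most correlated with *Mt2*. The alternatives covered background, normalization, the authors' and the scanner's ratios, the Cy5 channel alone, outlier spots, filters, the test, blocks, slide rows, labels and each mouse left out. Settings for *Mt2* minus *Mt1* and for the lists were chosen after seeing the data.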

Additional observations from a re-analysis of the deposited data

How the results depend on the processing

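At an adjusted p of 0.05, 0 of the 8 genes passed in limma under any of the 23 alternatives. *Mt2* kept its sign and its separation in all 22 that use the titles, at 0.56 to 0.87 (adjusted p from 0.154 to 0.896), and at 0.56 to 0.75 with each mouse left out. For most of these the separation could not fail. Leaving out a mouse or keeping 1 slide row cannot make separated groups overlap, and changes of test, block or filter reuse the same values. Only changes of background, normalization, ratio, channel or outlier spots could have undone it. With each mouse left out *Mt1* was 0.10 to 0.22, *Mt3* -0.17 to -0.03, *Slc30a1* 0.15 to 0.31, *Slc30a3* 0.09 to 0.20, *Slc30a10* -0.18 to -0.02, *Slc39a10* -0.32 to -0.15 and *Slc39a14* 0.10 to 0.21. By the source names *Mt2* was -0.0309, *Mt2* minus *Mt1* was -0.0495, *Mt3* was 0.234, *Slc30a10* was 0.0632 and *Slc39a10* was 0.12, and 0 of the 8 genes separated. *Mt1* was then 0.0186, *Slc30a1* 0.116, *Slc30a3* 0.144 and *Slc39a14* 0.0414. Signs also turned for *Mt3* (0.15 with median centring, 0.0893 in Cy5 alone, 0.13 in row 1), *Slc39a10* (0.0369 with median centring) and *Slc30a10* (0.0198 with the authors' ratios). The separated genes numbered 2 with median centring (9.53% of all probes separated there), 5 in row 1 (38.9%) and 3 in row 2 (37.1%), where 2 mice meet 2. The probes called over the whole array, 3, all lower, became 0 with the scanner's ratio, with the gene-wise F test, within either row and by source names. They became 5 without a filter, 6 in Cy5 alone and 6 with an intensity trend and robust fit (1 higher and 5 lower), and they were 1 to 3 with each mouse left out, at 1 without control mouse 1, 3 or 4 or BaP-exposed mouse 2. The cause of these changes was not tested. The glucocorticoid list had medians of 0.30 to 0.60 over 21 settings by title, the other zinc genes -0.0043 to 0.26 and the copper and iron genes -0.0086 to 0.28, the highest in each case with median centring. By the source names these medians were 0.08, -0.0072 and -0.11. With the replicate number as a replicate block, *Mt2* was 0.66 (standard error 0.09, adjusted p = 0.438 in limma) and no call among the 8 genes changed. Same-numbered mice are not known to share more than the number. Their deviations from the group means had correlations of -0.35 to 0.03, which cannot show whether they were handled together. Each gene has 1 probe, so other probes gave no value. The dim reference signal limits *Slc30a10*, and 4 mice a group limit every interval.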
